A study of Mus musculus with 4 samples.

Results

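The genes described here are the mouse major histocompatibility complex (MHC) genes and the genes that process and load antigen. They were chosen by name: every gene whose symbol begins with H2-, together with B2m, Tap1, Tap2, Tapbp, Tapbpl, Psmb8, Psmb9, Psmb10, Erap1, Nlrc5, Cd74, Ciita, Ctss and Ifi30. Only probe sets that the platform annotation assigns to a single symbol were used, and each gene took its probe set with the highest mean. This gave 43 genes of 19938. By role they were 20 class I H2 genes, 10 class I pathway genes, 8 class II H2 genes and 4 class II pathway genes, and H2-Ke6, which carries an H2 symbol but codes for no MHC molecule. The classical class I genes H2-K1 and H2-D1 and the class II loading genes H2-DMb1 and H2-DMb2 were among 13 H2 symbols found only on probe sets shared by several genes, so they are given no level of their own.

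Expression was measured on 4 Affymetrix whole-transcript arrays, with 1 array for each group of cultured C57BL/6 cells. Embryonic stem cells were a control, and how they were grown is not given in the sources used here. Osteoblasts, the other control, came from the calvariae of newborn mice by repeated enzyme digestion, with the cells of the last digestions pooled, and were grown in 10% fetal calf serum. Mesenchymal stem cells (MSC) were marrow cells of femur and tibia that adhered to plastic over 5 days. They were grown in 10% serum either without basic fibroblast growth factor (bFGF) or with it at 1 ng/ml. No treatment was shared by all groups, and no sort of the adherent marrow cells is described in the labels. The study's stated question was what bFGF does to these marrow cells.

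MHC class I molecules display peptides from the cytosol on almost all nucleated cells. The proteasome cuts the peptides, the TAP transporter carries them into the endoplasmic reticulum, and tapasin, encoded by Tapbp, helps to load them onto a heavy chain paired with beta-2 microglobulin. MHC class II molecules display peptides from endosomes, mainly on macrophages, dendritic cells and B cells, under the control of the transactivator Ciita. Interferon gamma is the best known inducer of both pathways.

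The values are log2 levels made with RMA. A level was counted as above the floor when it exceeded the median of its array's single-symbol probe sets, which was 6.46 in embryonic stem cells, 6.46 in osteoblasts, 6.29 in MSC without bFGF and 6.32 in MSC with bFGF. Genes were called higher or lower at a log2 difference of 1, which is 2-fold, if the higher level lay above its floor. With 1 array per group there was no replicate check and no test, so every difference below compares single arrays. The 6 pairs of arrays share arrays and are not independent of each other. As a measure of noise at low levels, 1194 olfactory and vomeronasal receptor genes differed between the MSC arrays by -0.97 to 0.67 in their central 95%. In MSC without bFGF this range ran from -0.76 to 1.01 against osteoblasts and from -0.71 to 1.09 against embryonic stem cells. Its upper end thus passed the threshold of 1 in these pairs, while the range of every other pair stayed within 2-fold.

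Cell type markers were measured on the same arrays, and their part in the results below was not tested. Of 10 macrophage markers, 10 lay above the floor in osteoblasts, 9 in MSC with bFGF, 9 in embryonic stem cells and 6 in MSC without bFGF. The log2 of their summed linear levels was 14.89, 13.37, 12.06 and 10.51 in the same order. The pan-leukocyte gene Ptprc was under the floor in embryonic stem cells, and Ptprc, Adgre1, Cybb and Mrc1 were under it in MSC without bFGF. None of 5 measured osteoblast markers (Sp7, Alpl, Ibsp, Dmp1 and Phex) lay above the floor in the array labelled osteoblasts. Of 8 stromal markers, 8 lay above it in osteoblasts, 5 in each MSC array and 7 in embryonic stem cells, where 5 of 7 embryonic stem cell markers did and Zfp42 and Esrrb did not. No marker of T and NK cells passed the floor in any array. Of the B cell markers only Ebf1 and Blnk, in osteoblasts, and Ebf1, in MSC without bFGF, passed it. In bulk RNA fewer cells of a type and less RNA per cell cannot be told apart.

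All 10 class I pathway genes lay above the floor in all 4 arrays, Nlrc5 by the highest of its 19 probe sets. With probe sets averaged, class I genes above the floor in embryonic stem cells numbered 11 instead of 12. Of the 4 class II pathway genes, 2 lay above it in all arrays and 3 in MSC with bFGF. Few H2 genes with a probe set of their own had signal. In a single array 2 to 5 of the 20 class I H2 genes lay above the floor. For the class II H2 genes it was 0 or 1 of 8. The 13 H2 symbols found only on shared probe sets are not counted here. Of their 8 shared probe sets, 7 lay above the floor in at least 1 array. Of the 8 class II H2 genes, 7 were under the floor in all 4 arrays. Over all genes 49.6% to 50.0% lay above the floor in an array, as the floor's definition implies. The class II H2 gene with signal was H2-Eb1, a beta chain of the E molecule, at 6.61 in osteoblasts and 6.35 in MSC without bFGF, barely over the floor, and at 6.07 in embryonic stem cells and 6.04 in MSC with bFGF. Of the class I H2 genes 14 of 20 were under the floor in all 4 arrays.

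The promoters of several of these genes are known to carry a shared array of elements that binds the RFX, CREB and NF-Y factors and recruits Ciita or its class I counterpart Nlrc5. Sequences are shown for genes that carry such letters, or an interferon response element, and that differ in their measured levels. They are RefSeq sequences of build GRCm38.p6, the 250 bases before the most upstream start site, and 31 of the 43 genes had an entry. Capitals mark TGACG, the core of the CREB site, CCAAT, the core of the NF-Y site, and an interferon response element written here as GAAA followed after 2 bases by GAAA, each on either strand.
H2-Aa, chr17:34287824-34288073, minus strand: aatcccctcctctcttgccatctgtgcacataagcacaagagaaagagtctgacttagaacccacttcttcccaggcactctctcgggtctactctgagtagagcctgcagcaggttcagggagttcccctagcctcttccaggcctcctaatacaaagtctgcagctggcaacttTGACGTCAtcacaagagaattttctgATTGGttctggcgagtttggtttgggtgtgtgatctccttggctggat
B2m, chr2:122147437-122147686, plus strand: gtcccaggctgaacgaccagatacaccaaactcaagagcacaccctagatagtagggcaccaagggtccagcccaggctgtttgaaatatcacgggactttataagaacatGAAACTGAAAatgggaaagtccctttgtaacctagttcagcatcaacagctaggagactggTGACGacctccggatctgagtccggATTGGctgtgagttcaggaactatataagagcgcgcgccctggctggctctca
H2-M3, chr17:37269984-37270233, plus strand: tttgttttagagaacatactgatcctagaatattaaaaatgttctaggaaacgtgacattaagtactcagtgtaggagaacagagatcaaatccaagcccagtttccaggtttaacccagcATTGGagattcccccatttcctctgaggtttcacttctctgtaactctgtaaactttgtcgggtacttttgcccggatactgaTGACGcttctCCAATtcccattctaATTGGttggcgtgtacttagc
H2-Q4, chr17:35379367-35379616, plus strand: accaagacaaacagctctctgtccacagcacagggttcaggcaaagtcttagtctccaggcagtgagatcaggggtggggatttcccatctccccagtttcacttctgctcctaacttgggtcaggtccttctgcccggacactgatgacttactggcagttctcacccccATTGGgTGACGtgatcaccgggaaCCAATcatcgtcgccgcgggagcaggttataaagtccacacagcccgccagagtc
Ctss, chr3:95526536-95526785, plus strand: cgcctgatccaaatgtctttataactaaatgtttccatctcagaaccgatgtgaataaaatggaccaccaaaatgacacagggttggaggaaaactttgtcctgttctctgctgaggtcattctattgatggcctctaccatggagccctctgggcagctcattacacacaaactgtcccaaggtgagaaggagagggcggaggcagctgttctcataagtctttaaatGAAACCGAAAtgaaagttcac
Tap1, chr17:34187306-34187555, plus strand: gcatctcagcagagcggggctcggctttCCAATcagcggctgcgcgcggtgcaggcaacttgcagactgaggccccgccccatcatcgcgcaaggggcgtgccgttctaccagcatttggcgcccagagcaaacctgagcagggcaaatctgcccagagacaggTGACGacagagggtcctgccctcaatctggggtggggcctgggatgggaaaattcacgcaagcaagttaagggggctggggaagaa
TGACG followed on the gene's strand by ATTGG, the reverse of CCAAT, after 10 to 30 bases was found before H2-Aa, B2m and H2-M3, against 0.344% of 27025 genes. The spacing was 21 bases in H2-Aa, 20 in B2m and 20 in H2-M3. These 3 genes did not share a pattern of levels: H2-Aa was under the floor everywhere, B2m above it everywhere, and H2-M3 above it in 3 of 4 arrays. CCAAT was found before 23 of the 31 genes against 34.5% of all genes, and TGACG before 12 of 31 against 17.8%; each site of the pair is counted in these shares too. The interferon response element, in the exact letters given above, was found before B2m and Ctss, 2 of 31 genes, against 3.05% of all genes. Other forms of this element were not searched, so a window without capitals for it may still hold one. The interferon gamma activated letters TTCNNNGAA were found before 3 of 31 genes, against 7.14%. The windows of Tap1 and Psmb9 lie on opposite strands and share 225 bases. These matches describe letters in a window and show no binding.

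With bFGF, the MSC array had higher levels of Ctss, Ifi30 and Cd74, of the class II pathway, and of the Q-series class I genes H2-Q4 and H2-Q5, while the class II H2 genes were under the floor in it. Of the 43 genes 20 passed the floor in this comparison, 5 reached 2-fold towards bFGF and 0 in the other direction; of all 10483 genes that passed it, 4.09% were higher and 0.467% lower. In the same pair 9 of 10 macrophage markers were called higher with bFGF, by 2.02 to 3.58, and of 8 stromal markers Col3a1 (-1.20), Dcn (-1.22) and Pdgfrb (-1.12) were called lower. The part of these markers in the 5 calls was not tested. The endosomal proteases Ctsb (0.46), Ctsd (0.31), Lgmn (0.55) and Ctsl (-0.46) were not called. The median difference was 0.09 over the 30 class I genes and 0.07 over the 12 class II genes, against -0.06 over all genes; with a loess curve over the mean level removed, the medians were 0.24 and 0.23. Most members of both lists differed by less than 2-fold.

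Ctss, the lysosomal cathepsin S that trims the invariant chain, stood at 8.84 in embryonic stem cells, 12.05 in osteoblasts, 7.88 in MSC without bFGF and 10.51 in MSC with bFGF. It was above the floor in all 4 arrays and 6.21-fold higher with bFGF than without, a log2 difference of 2.63. Ifi30, the interferon-inducible thiol reductase GILT that unfolds proteins in endosomes, stood at 9.17, 10.27, 6.61 and 8.55 in the same order. Its level was lowest without bFGF, and the MSC arrays differed by 1.94. For both genes osteoblasts were the highest and MSC without bFGF the lowest array, as for the summed macrophage markers. Embryonic stem cells exceeded MSC with bFGF in Ifi30, the reverse of the order of the summed markers. Single markers were divided: Adgre1, Lyz2 and Mrc1 were also higher in embryonic stem cells. The other 7 of the 10 were called higher in MSC with bFGF. The part of macrophage RNA in these differences was not tested.

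Cd74, the invariant chain that chaperones class II molecules, had another pattern. It stood at 5.01 in embryonic stem cells, 5.98 in osteoblasts, 6.29 in MSC without bFGF and 8.82 in MSC with bFGF. Only MSC with bFGF lay above the floor, so the size of the difference of 2.53 between the MSC arrays depends on background. MSC with bFGF minus osteoblasts gave 2.84, a size that depends on background as well. The log2 sum of the macrophage markers was 14.89 in osteoblasts and 13.37 in MSC with bFGF, and their part in the Cd74 differences was not tested. Of 7 dendritic cell markers the integrin Itgax lay above the floor in MSC with bFGF, at 7.82, and in no other array, while Flt3, Xcr1, Cd209a, Siglech, Zbtb46 and Ccr7 were under it in MSC with bFGF.

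The class II H2 genes with a probe set of their own had little signal. H2-DMb1 and H2-DMb2, found only on shared probe sets, are not covered. H2-Aa, the alpha chain of the A molecule, ranged from 4.31 to 4.49 over the 4 arrays, and its partner H2-Ab1 from 5.55 to 5.95, with its highest level in MSC with bFGF. H2-Oa, a chain of the inhibitor of peptide exchange, stood at 6.30 in MSC with bFGF, just under the floor of 6.32, against 5.54 without. H2-DMa, a chain of the peptide exchange factor, stood at 6.44 in osteoblasts, just under the floor of 6.46, and at 5.19 to 5.58 elsewhere. H2-Ob, H2-Eb2 and H2-Ea, annotated as a transcribed pseudogene in this strain, lay between 4.47 and 5.63. Ciita ranged from 5.19 to 5.47 and was lowest in MSC with bFGF. A level under the floor bounds a transcript poorly and does not show that it was absent.

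**Figure D1:**
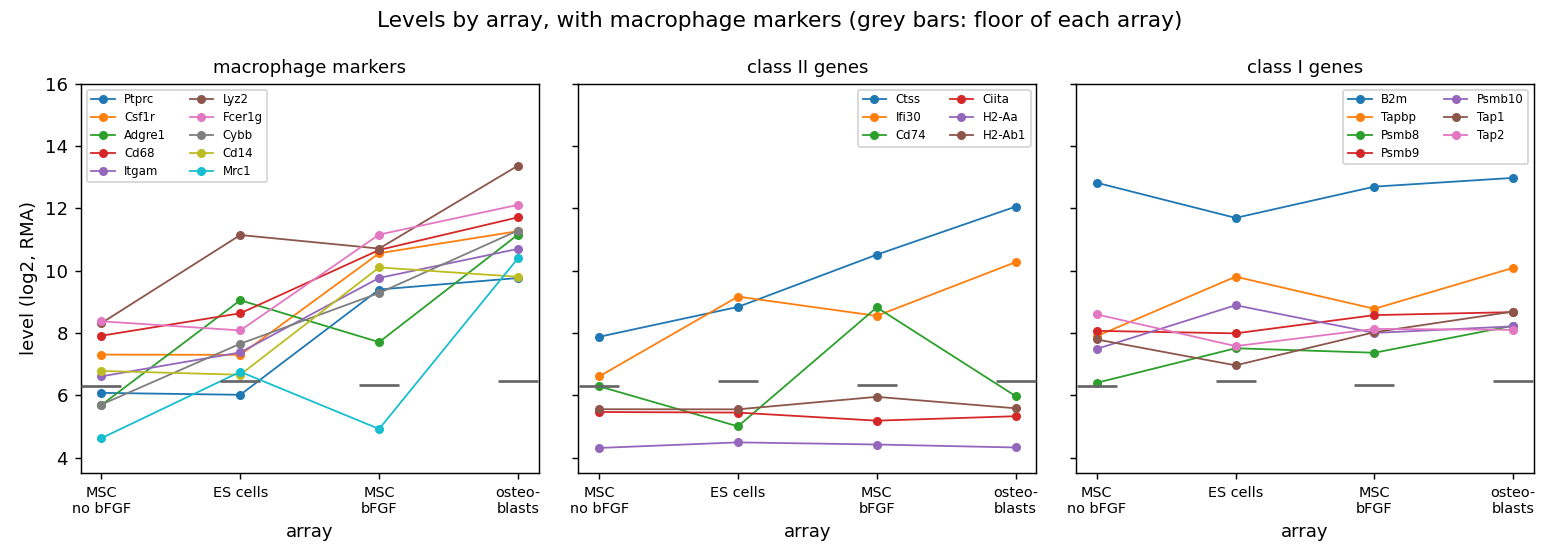
Log2 RMA level (y axis) by array (x axis, ordered from MSC without bFGF to osteoblasts) for 10 macrophage markers, 6 class II genes and 7 class I genes; each line joins the values of 1 gene and the grey bars are the floors. Ctss is highest in osteoblasts at 12.05 and lowest in MSC without bFGF at 7.88, as are 6 of the 10 macrophage markers, while Cd74 peaks at 8.82 in MSC with bFGF and Ciita and H2-Aa are flat under the floor.

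The class I H2 genes that had signal and could be named were non-classical or pseudogenes; non-classical molecules have restricted or specialised roles. H2-Q4 stood at 7.16 in embryonic stem cells, 7.71 in osteoblasts, 5.69 in MSC without bFGF and 7.50 in MSC with bFGF, so that MSC without bFGF was the only array under the floor. The MSC arrays differed by 1.82, a size that depends on background. H2-Q5, annotated as a transcribed pseudogene, stood at 7.00, 6.60, 6.75 and 7.93, and was 1.17 higher with bFGF. With a floor at the 75th percentile neither gene was counted. The Q genes lie in a family of near copies, so these values may share signal with relatives and are uncertain.

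H2-M3, which presents formylated bacterial peptides, stood at 5.96 in embryonic stem cells, 7.38 in osteoblasts, 7.50 in MSC without bFGF and 8.15 in MSC with bFGF. It was under the floor in embryonic stem cells only, and both MSC arrays were higher than that array, by 1.54 and 2.19 without and with bFGF. Both sizes depend on background. H2-T24 stood at 5.26, 6.95, 5.77 and 6.47 and was above the floor in osteoblasts and MSC with bFGF. H2-T10, a transcribed pseudogene in this annotation, passed the floor in osteoblasts alone, at 6.68. H2-K2, also a pseudogene, was under the floor in all arrays, from 4.57 to 6.15.

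H2-M10.1 had signal in the MSC arrays only. It stood at 7.48 in MSC without bFGF and 7.17 with bFGF, whereas osteoblasts stood at 3.86 and embryonic stem cells at 4.15. The M10 genes are known from vomeronasal neurons. MSC without bFGF exceeded osteoblasts by 3.63, and the lower level was under the floor, so the size depends on background. H2-M10.2 to H2-M10.6 were under the floor in all arrays, from 3.47 to 6.16, with H2-M10.2, H2-M10.4 and H2-M10.6 highest in MSC without bFGF. The other M genes, H2-M1, H2-M2, H2-M5, H2-M9 and H2-M11, lay between 3.49 and 5.60. H2-Bl, H2-Q2 and H2-Q10 were under the floor as well, from 4.45 to 6.32.

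Among the class I pathway genes no member passed 2-fold between the MSC arrays. Of the 10 genes 6 were above 0, against 8563 of all 19938 genes. B2m, the light chain of all class I molecules, stood at 11.69 in embryonic stem cells, 12.98 in osteoblasts, 12.82 in MSC without bFGF and 12.70 in MSC with bFGF. Embryonic stem cells were the low array, and the MSC arrays differed by -0.12. Tapbp, the peptide-loading chaperone tapasin, stood at 9.81, 10.09, 7.90 and 8.78 and was 0.88 higher with bFGF. Its low arrays were those of MSC. Its relative Tapbpl, a peptide editor, ranged from 6.54 to 6.96.

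The TAP transporter subunits did not move together. Tap1 stood at 6.96 in embryonic stem cells, 8.69 in osteoblasts, 7.79 in MSC without bFGF and 8.03 in MSC with bFGF. Tap2 stood at 7.58, 8.10, 8.60 and 8.13, with its highest level in MSC without bFGF, and the MSC arrays differed by -0.47. Both were lowest in embryonic stem cells. Psmb9 stood at 7.99, 8.67, 8.07 and 8.58 and had the same order of arrays as Tap1, an order found in 8 of the 43 genes. Erap1, the aminopeptidase that trims peptides in the endoplasmic reticulum, stood at 7.63, 8.46, 7.34 and 7.73.

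The immunoproteasome subunits Psmb8, Psmb9 and Psmb10 replace the constitutive catalytic subunits Psmb5, Psmb6 and Psmb7 and are induced by interferon gamma. Psmb8 stood at 7.51 in embryonic stem cells, 8.24 in osteoblasts, 6.40 in MSC without bFGF and 7.37 in MSC with bFGF. With bFGF minus without, the differences were 0.96 for Psmb8, 0.50 for Psmb9 and 0.51 for Psmb10, against -0.06 for Psmb5, 0.13 for Psmb6 and 0.25 for Psmb7. MSC without bFGF minus osteoblasts gave -1.83, -0.60 and -0.72 for the 3 immunoproteasome genes in that order, where only Psmb8 passed 2-fold and the constitutive partners differed by -0.03, -0.02 and 0.06. Psmb10 had its highest level, 8.89, in embryonic stem cells and its lowest, 7.49, in MSC without bFGF.

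**Figure D2:**
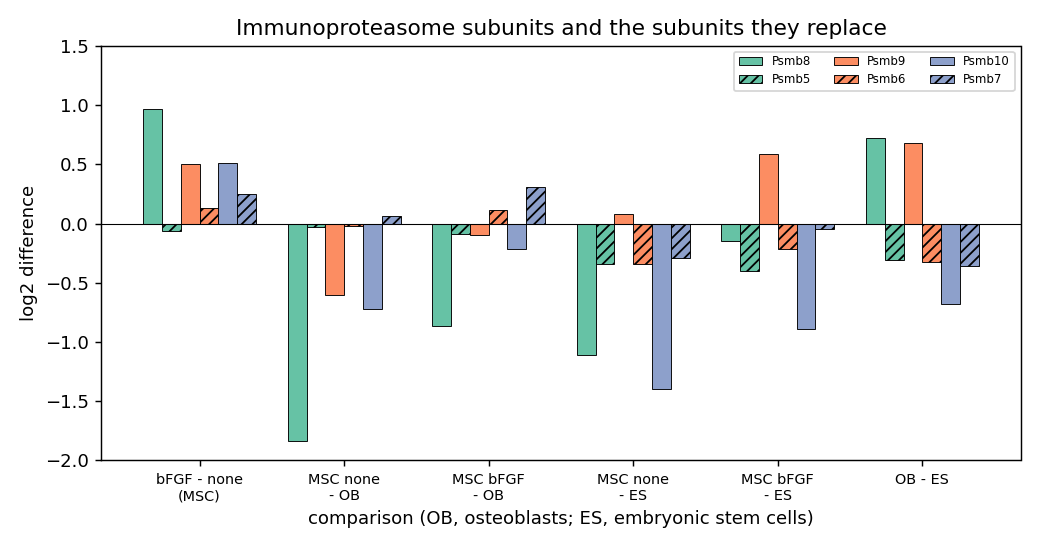
Log2 difference (y axis) for the 6 pairs of arrays (x axis) of the immunoproteasome genes Psmb8, Psmb9 and Psmb10 (plain bars) and of the constitutive genes Psmb5, Psmb6 and Psmb7 that they replace (hatched bars of the same colour). The deepest bar is Psmb8 in MSC without bFGF minus osteoblasts at -1.83, where Psmb5 is at -0.03; there are no error bars because each group has 1 array.

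Nlrc5, the class I transactivator, had 19 probe sets, and the direction of several differences was not the same in the probe set with the highest mean as in most of the other 18. The chosen probe set stood at 9.58 in embryonic stem cells, 10.01 in osteoblasts, 9.58 in MSC without bFGF and 9.37 in MSC with bFGF. MSC with bFGF minus embryonic stem cells gave -0.22 there, whereas all 18 others were above 0, with a median of 1.06 and a range of 0.23 to 2.49. Between the MSC arrays 17 of the 18 were higher with bFGF, with a median of 0.20, and the chosen probe set differed by -0.21. In osteoblasts minus embryonic stem cells the chosen probe set gave 0.43, and 16 of the 18 others were above 0. Between the MSC arrays the direction for Nlrc5 therefore depends on the probe set.

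**Figure D3:**
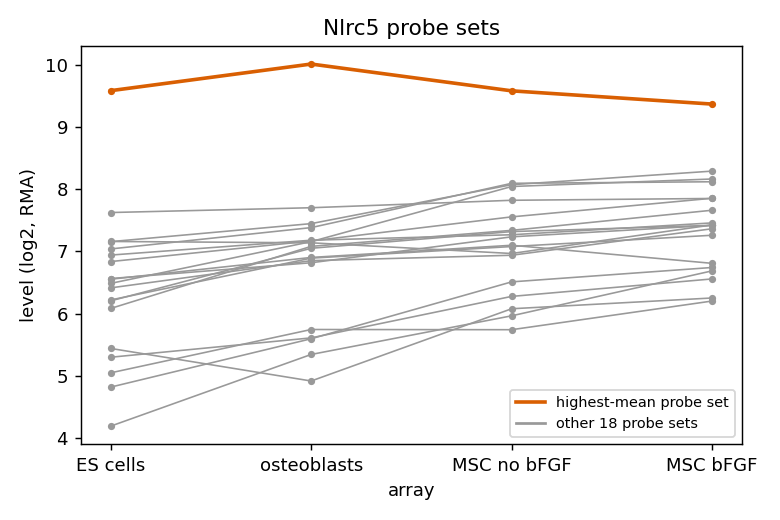
Log2 RMA level (y axis) of the 19 Nlrc5 probe sets by array (x axis), with the probe set of highest mean in orange and the other 18 in grey. The orange line stands at 10.01 in osteoblasts and at 9.37 in MSC with bFGF, while 17 of 18 grey lines are higher in MSC with bFGF than in osteoblasts.

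Compared with osteoblasts, MSC without bFGF had lower levels of 7 of these genes, from both branches. Of 20 genes that passed the floor 7 were lower and 1 was higher, where 13.3% of all genes were lower and 8.17% higher. The lower genes were Ctss (-4.17), Ifi30 (-3.67), Tapbp (-2.19), H2-Q4 (-2.02), Psmb8 (-1.83), H2-T24 (-1.18) and Erap1 (-1.12), and the higher gene was H2-M10.1. H2-Q4 and H2-T24 were under the floor in MSC without bFGF, and H2-M10.1 in osteoblasts, so the sizes for these genes depend on background. Their calls were lost with a floor at the 75th percentile. The median was -0.37 for class I and -0.31 for class II genes, against 0.03 over all genes. The macrophage markers had their highest sum in osteoblasts and their lowest in MSC without bFGF. All 8 stromal markers were lower in MSC without bFGF than in osteoblasts as well, with differences from -5.05 (Postn) to -0.82 (Col1a2). The part of either set of markers in these differences was not tested. In MSC with bFGF minus osteoblasts, of 21 genes that passed the floor 3 were lower, Ifi30 (-1.72), Ctss (-1.54) and Tapbp (-1.31), and 3 higher, H2-M10.1 (3.31), Cd74 (2.84) and H2-Q5 (1.32). In that comparison 9.71% of all genes were lower and 7.5% higher.

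**Figure D4:**
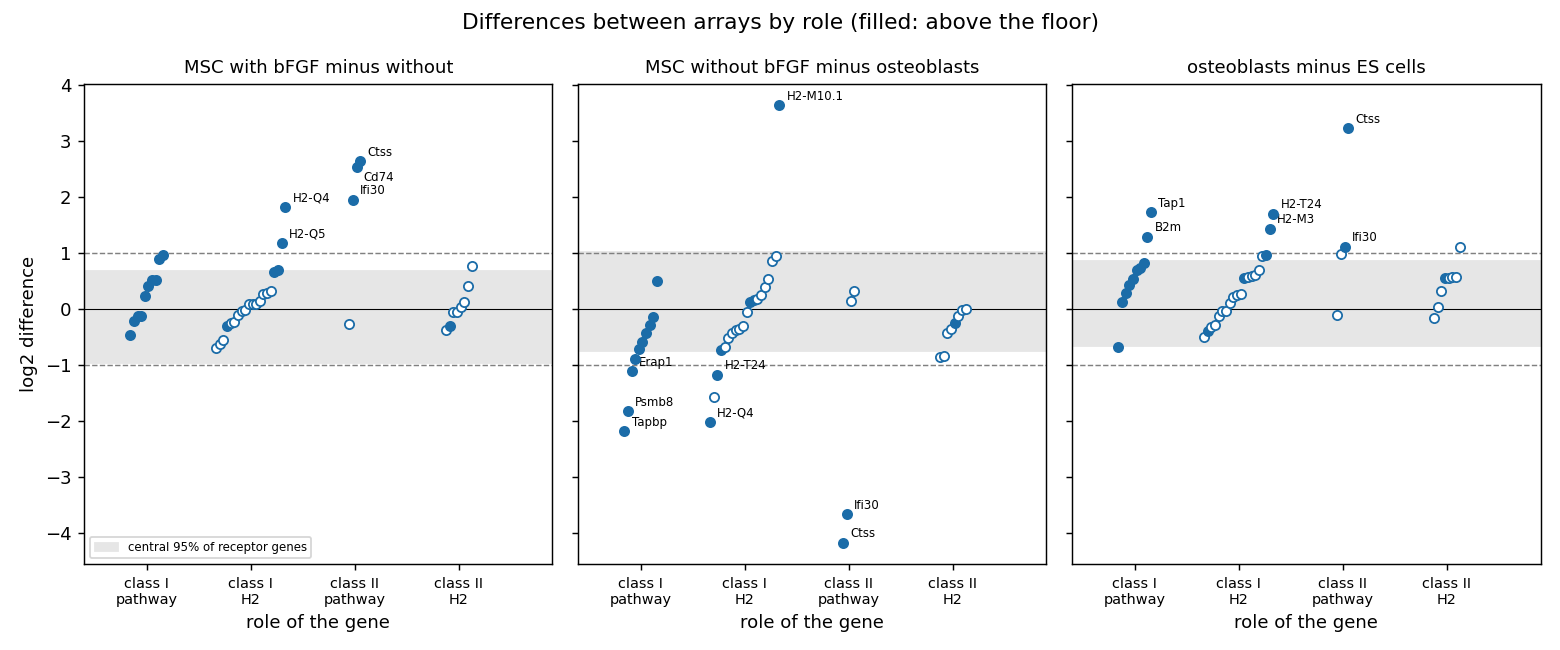
Log2 difference (y axis) of each gene by role (x axis) for 3 pairs of arrays; filled points passed the floor, dashed lines mark 2-fold, and the grey band is the central 95% of receptor genes. Genes past 2-fold are named: Ctss, Cd74, Ifi30, H2-Q4 and H2-Q5 are higher with bFGF, Ctss (-4.17) and Ifi30 (-3.67) lie lowest in MSC without bFGF minus osteoblasts, and no gene above the floor is 2-fold lower in osteoblasts than in embryonic stem cells.

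Compared with embryonic stem cells, the other arrays had higher B2m and H2-M3. B2m was higher by 1.28 in osteoblasts, 1.13 in MSC without bFGF and 1.00 in MSC with bFGF, the last at the threshold. Across the genes above the floor the median difference between MSC with bFGF and embryonic stem cells was 0.12. After centring on that median B2m was at 0.89 and Tap1 at 0.95, both under 2-fold. Osteoblasts exceeded embryonic stem cells 2-fold in 6 of the 19 genes that passed the floor, Ctss (3.22), Tap1 (1.73), H2-T24 (1.69), H2-M3 (1.42), B2m (1.28) and Ifi30 (1.11), and were lower in 0, against 12.3% of all genes higher and 8.83% lower. H2-T24 and H2-M3 were under the floor in embryonic stem cells, so their sizes depend on background. The class I median was 0.47 and the class II median 0.56, with 0.07 over all genes. Of the 43 genes, including those under the floor, 33 were above 0, against 11012 of all 19938 genes.

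MSC without bFGF were higher than embryonic stem cells in H2-M10.1 (3.33), H2-M3, B2m and Tap2 (1.02, or 0.92 after centring), and lower in Ifi30 (-2.56), Tapbp (-1.91), H2-Q4 (-1.47), Psmb10 (-1.40) and Psmb8 (-1.11). That made 4 higher and 5 lower of 18 genes that passed the floor, against 10.4% and 11.8% of all genes. MSC with bFGF were higher in 7 of 19, against 11.3% of all genes, and lower in 1, Tapbp (-1.03), against 10.6%. The 7 were Cd74 (3.82), H2-M10.1 (3.02), H2-M3, Ctss (1.68), H2-T24 (1.20), Tap1 (1.06) and B2m. Cd74, H2-M10.1, H2-M3 and H2-T24 were under the floor in embryonic stem cells, and H2-Q4 in MSC without bFGF. The sizes for these genes depend on background. Macrophage and stromal markers also had signal in the embryonic stem cell array, and their part in these differences was not tested.

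Other genes of the pathway were taken from a list of 43, of which 39 were measured. Between the MSC arrays 34 of the 39 passed the floor, and of these 2 were called higher with bFGF and 0 lower, where 4.09% of all genes were higher and 0.467% lower. The median over the 39 was 0.21. The 2 genes were the costimulatory ligand Cd86 (3.61) and Irf8 (1.99), a transcription factor of myeloid and B cells, and Cd86 stood at 5.24 without bFGF, under the floor. Irf1, the interferon-induced activator of class I genes, stood at 8.56 in embryonic stem cells, 8.23 in osteoblasts, 7.04 in MSC without bFGF and 7.00 in MSC with bFGF. It was low in both MSC arrays. Rfx5, a DNA-binding subunit of the class II enhanceosome, was under the floor in all 4 arrays, from 5.81 to 6.32, while the other 6 enhanceosome genes lay above it. The chaperones Calr, Canx and Pdia3 and the translocon gene Sec61a1 lay between 10.75 and 12.16 in all arrays.

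Of the 34 that passed the floor in MSC without bFGF minus osteoblasts, 9 were called lower and 1, Nfyb, higher, against 13.3% and 8.17% of all genes. The 9 included both chains of the interferon gamma receptor, Ifngr1 and Ifngr2, Irf8 (-2.40), Irf1 (-1.19), the proteasome activator Psme2 (-1.06) and the endosomal proteases Ctsb, Ctsd and Lgmn. In osteoblasts minus embryonic stem cells 11 of the 35 that passed the floor were called higher and 1, Cd40, lower, against 12.3% and 8.83% of all genes. These 2 comparisons share the osteoblast array.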

How the data were processed

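The deposited table held log2 levels per probe set for 4 arrays; per the submitters' processing notes the authors used Affymetrix Expression Console and RMA, which corrects background and makes array distributions alike. The log2 scale was inferred from the values. Tool versions and build: not given in the sources used here. The number of arrays limits the precision, and 1 array per group allows no test.

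Of 35556 probe sets, 21789 had 1 symbol, 1621 several and 12146 none in the platform table; only the first kind was named. All 43 genes matched RefSeq identifiers, and 0 symbols changed. The members and lists were chosen with earlier results of these data known. The naming rule took members with signal in at least 1 array, in full for pathway and class II genes and for other H2 genes that varied 2-fold. Of the other pathway genes it took those past 2-fold between the MSC arrays, and Irf1, Rfx5, Psmb5, Psmb6 and Psmb7; another gene of the rule is not reported here. Further examples were chosen after their values were seen. Cell type markers were macrophage, dendritic cell, B cell, T and NK cell, endothelial, embryonic stem cell, osteoblast and stromal lists. Of 5 endothelial markers only Kdr, in embryonic stem cells, passed the floor.

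Alternatives were averaging the probe sets of each gene, dropping the floor, raising it to the 75th percentile, centring on the median, removal of a loess curve (span 0.3) and a 1.5-fold threshold. Counting was tested on simulated data. Python 3.11.15, numpy 2.4.6, pandas 2.3.3 and statsmodels 0.14.6 were used.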

Additional observations from a re-analysis of the deposited data

How the results depend on the processing

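No called difference changed sign in these settings, and 229 of 252 values of called genes kept their call. Much of this follows from how the settings work. Dropping the floor or lowering the threshold cannot remove a call, and averaging left called genes unchanged because each had 1 probe set. Averaging did add a call: MSC with bFGF were then higher than embryonic stem cells in 8 genes instead of 7. The added gene was Nlrc5, the only member with several probe sets. The calls lost were 16 at the 75th percentile floor, 4 with the loess curve and 3 with centring. With a floor at the 75th percentile the genes higher with bFGF fell from 5 to 3, without H2-Q4 and H2-Q5. At that floor MSC without bFGF were higher than osteoblasts in 0 genes and than embryonic stem cells in 2, lower than the latter in 3, and MSC with bFGF were higher than osteoblasts in 1 and than embryonic stem cells in 4. Class I genes above that floor numbered 5 in embryonic stem cells, 9 in osteoblasts, 4 in MSC without bFGF and 6 with bFGF. Class II genes numbered 0 in MSC without bFGF. Over all genes 24.3% to 24.6% lay above that floor in an array. At 1.5-fold 9 genes were higher with bFGF. At 1.5-fold MSC without bFGF were lower than osteoblasts in 11, MSC with bFGF in 7 and lower than embryonic stem cells in 3; osteoblasts exceeded embryonic stem cells in 10 and were lower in 1. With no floor MSC with bFGF were lower than osteoblasts in 5. Centring or a loess curve each left MSC with bFGF lower than embryonic stem cells in 2, and the curve left MSC without bFGF higher in 2; B2m, Tap1 and Tap2 lie close to the threshold. The curve also turned the class II median of MSC without bFGF minus embryonic stem cells from 0.07 to -0.0022. The share of all genes called was not computed at these settings, so the changed counts have no background to be set against. The causes were not tested beyond the settings' own construction. No paired analysis was possible because each group has 1 array. Levels near the floor compress differences.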

Other observations

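Among class I-like genes outside the H2 symbols, Mr1 and Hfe were low in embryonic stem cells. Mr1, which presents vitamin B metabolites, stood at 5.71 in embryonic stem cells, 8.01 in osteoblasts, 8.31 in MSC without bFGF and 8.35 in MSC with bFGF. The iron regulator Hfe stood at 5.92, 8.18, 7.32 and 7.20. Both were under the floor in embryonic stem cells only. Procr, the endothelial protein C receptor, stood at 7.96, 7.40, 8.17 and 8.46, and the lipid-presenting Cd1d1 was under the floor in all arrays, from 4.48 to 5.74.

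The 8 probe sets to which the platform assigns several symbols, with an H2 gene among them, were left out of the counts of named genes. Their levels cannot be given to a single gene. H2-K1, H2-D1, H2-DMb1 and H2-DMb2 are found only on such probe sets, so their signal was not measured apart and is not shown to be absent. Of the 8 probe sets 7 lay above the floor in at least 1 array. In MSC with bFGF 5 of the 8 were higher than without, against 8563 of all 19938 genes. The 5 differences ran from 0.07 to 1.81. Probe set 10444824 stood at 7.11 in embryonic stem cells, 6.72 in osteoblasts, 6.26 in MSC without bFGF and 8.08 in MSC with bFGF. The difference of 1.81 between its MSC levels lies beside 1.82 for H2-Q4 and 1.17 for H2-Q5. Osteoblasts minus embryonic stem cells gave -0.39 for this probe set, against 0.55 for H2-Q4 and -0.40 for H2-Q5. Probe set 10450075 stood at 9.42, 10.96, 9.50 and 10.43 in the same order of arrays. Probe set 10444236 stood at 5.70, 7.35, 7.23 and 7.30 and was under the floor in embryonic stem cells alone. Probe set 10444780 stood at 8.94, 11.01, 10.72 and 10.84 and was low in embryonic stem cells alone.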
